A study of Mus musculus with 50 samples.

Results

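Wild type (WT) mammary ducts were compared between 6 weeks of age, the mid-puberty samples, and 4 weeks, the early-puberty samples. The arrays were chosen by their titles, WT Duct at 6 weeks and WT Duct at 4 weeks, which gave 3 arrays per age and 6 of the 50 arrays in the series. All mice had the CB6F1 background, a mixed strain, and the WT mice carried no transgene. Ducts were cut by laser from stained frozen sections of the gland, which enriches for epithelium but can carry fat and stroma along. Beside them stood 2 further sets of arrays at the same ages, the terminal end buds (TEBs) of WT mice (6 arrays) and the ducts of K14-DN-Clim mice (5 arrays). K14-DN-Clim mice express a dominant-negative Clim in basal epithelium from the keratin 14 promoter. Ducts and TEBs of both genotypes at 8 and 10 weeks were read for the levels of some genes. The WT arrays of these ages also entered alternative fits. Each age was collected from mice of that age only, so that age cannot be told apart from litter or collection, and p-values measure the spread between these samples.

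During puberty the ducts lengthen through the fat pad behind the TEBs, the proliferating club-shaped tips. A duct has an inner luminal layer and an outer basal, or myoepithelial, layer that contracts, and it lies on a basement membrane among fibroblasts, fat, vessels and immune cells. MHC class II molecules display peptides to helper T cells, and Cd74, the invariant chain, guides them through the cell. Oxidative phosphorylation is the mitochondrial chain that makes ATP. Imprinted genes are read from one parental allele and many act in growth.

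All 6 arrays carried the markers of ductal epithelium at high level. Krt8, a luminal keratin, read 8195 to 11460 at 4 weeks and 8587 to 9203 at 6 weeks in PLIER intensity, the summarised brightness of a probe set. Krt14, a basal keratin, read 1784 to 1996 and 1537 to 1735. The median intensity of an array lay between 186 and 221. The 6-week array of replicate 3 had the most probe sets below an intensity of 1 (1.85%) and the lowest correlations with the other arrays (0.911 to 0.941), while the other pairs correlated at up to 0.983. The 6-week array of replicate 2 had a lower mean correlation with its own age (0.953) than with the 4-week arrays (0.961).

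Between 4 and 6 weeks, 333 of 22693 probe sets changed (1.47%), 98 higher and 235 lower at 6 weeks, by limma at an adjusted p under 0.05. Taken as 1 probe set per gene, 53 of 13362 genes rose (0.397%) and 81 fell (0.606%). Among the 53 that rose the median log2 change was 0.95 and 22 at least doubled, and among the 81 that fell the median was -0.63 and 14 at least halved. The median over all genes was -0.035, with quartiles of -0.201 and 0.116. Most genes were thus negative, and counts of negative list members are to be read against that. In all 134 called genes the 3 arrays of one age lay wholly above the 3 of the other. Over all genes such separation was found in 10.9% upwards and 18.0% downwards. Counts of list members without overlap are to be read against these shares.

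The calls lay close to the threshold, with a lowest adjusted p of 0.016, and they depended on single arrays and on the variance model. Without replicate 1, 2 or 3 at 4 weeks, 236, 6 and 15 probe sets were called, and without replicate 1, 2 or 3 at 6 weeks, 0, 1 and 112. Where none was called, 1895 genes were still under an unadjusted p of 0.05. Without the trend of variance with intensity limma called 23 probe sets. The split of the calls also moved with scaling, from 29.4% of probe sets higher to 52.1% after quantile normalization, which called 200 higher and 184 lower. Of the called genes, 48 of those that rose and 60 of those that fell were called in the same direction after quantile normalization.

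**Figure D1:**
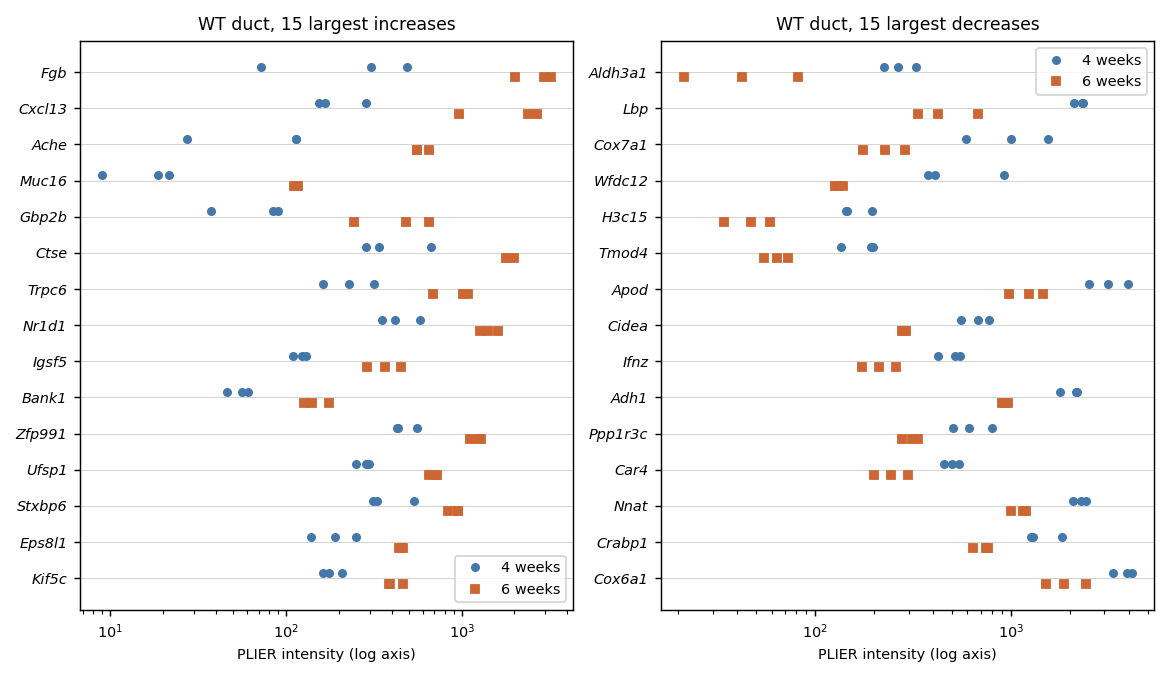
PLIER intensity (log axis) of the 15 genes with the largest increases (left) and the 15 with the largest decreases (right) among the called genes, with 1 point per WT duct array (circles, 4 weeks, 3 arrays; squares, 6 weeks, 3 arrays). In each of these 30 genes the 2 ages do not overlap, and Fgb spans from 71.9 at 4 weeks to 3227 at 6 weeks.

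The MHC class II genes and Cd74 were higher at 6 weeks. Of 7 measured members of the MHC and antigen presentation list, 3 rose, none fell, and all 7 changes were positive with a median log2 change of 1.05. H2-Eb1, a beta chain of the class II molecule (probe set 10444298), read 445, 453 and 369 at 4 weeks and 893, 983 and 756 at 6 weeks. It rose 2.07-fold, a log2 change of 1.05 (SE 0.13, adjusted p = 0.035). H2-Aa, an alpha chain (probe set 10450154), read 397, 522 and 335 at 4 weeks and 897, 895 and 779 at 6 weeks, a log2 rise of 1.06 (SE 0.17, adjusted p = 0.042). Cd74 (probe set 10456005) read 560, 663 and 440 against 1137, 1111 and 1236, a log2 rise of 1.09 (SE 0.15, adjusted p = 0.036).

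For each of these 3 genes the lowest 6-week array stood above the highest 4-week array. H2-Ab1, the partner chain of H2-Aa, read 381, 536 and 357 at 4 weeks and 1118, 1178 and 717 at 6 weeks, and its adjusted p of 0.052 missed the threshold. Ciita, the class II transactivator, read 105 to 130 at 4 weeks and 154 to 159 at 6 weeks, with an adjusted p of 0.21. B2m, the light chain of class I, had a log2 change of 0.097. H2-Eb1 had a log2 change of 1.35 in WT TEBs and of 1.01 in K14-DN-Clim ducts. The test of the difference, WT duct minus the other tissue, gave -0.30 (SE 0.17, adjusted p = 0.47) for TEBs and 0.045 (SE 0.25, adjusted p = 0.97) for K14-DN-Clim ducts.

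The promoter windows of the 2 called class II chains are shown because both genes rose and share a short element. Each runs from 250 bases before to 50 after the RefSeq start in GRCm38.p6, with capitals marking CTGATTGG, the inverted CCAAT letters of the class II Y box. H2-Eb1 lies on the plus strand at chr17:34305617-34305916 and H2-Aa on the minus strand at chr17:34287774-34288073.
H2-Eb1: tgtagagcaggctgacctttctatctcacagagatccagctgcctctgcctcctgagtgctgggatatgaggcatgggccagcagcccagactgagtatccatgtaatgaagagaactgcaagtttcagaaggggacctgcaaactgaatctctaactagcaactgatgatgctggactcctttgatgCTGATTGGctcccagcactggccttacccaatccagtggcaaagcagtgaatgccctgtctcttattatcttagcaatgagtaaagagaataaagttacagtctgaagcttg
H2-Aa: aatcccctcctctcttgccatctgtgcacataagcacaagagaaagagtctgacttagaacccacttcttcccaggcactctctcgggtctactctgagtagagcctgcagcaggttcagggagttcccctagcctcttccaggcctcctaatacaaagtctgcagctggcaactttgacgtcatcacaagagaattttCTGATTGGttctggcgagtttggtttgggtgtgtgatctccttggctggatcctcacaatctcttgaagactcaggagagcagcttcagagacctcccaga
The element began at -62 from the start of H2-Eb1 and at -51 from that of H2-Aa. Searched on both strands as CTGATTGG and CCAATCAG, it was in 4.1% of all 32851 windows of 300 bases. Of the 7 members of the list, 4 had a window in the table and 2 of those held it, B2m and H2-DMa being the others. A match is a run of letters and was not tested as a binding site.

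Markers of immune cells were read beside them. Of 12 lymphocyte markers none was called, 9 were positive and 5 were higher without overlap, with a median log2 change of 0.41. Their summed intensity was 1375 to 1624 at 4 weeks and 1841 to 2338 at 6 weeks, so the 2 ages did not overlap. Ptprc, the pan-leukocyte CD45, read 293, 240 and 239 at 4 weeks and 441, 437 and 388 at 6 weeks (log2 change 0.72, adjusted p = 0.052). Ccl5, a T cell chemokine, read 131 to 224 and 276 to 511 (adjusted p = 0.075). Of 10 macrophage markers none was called and 8 were negative, with sums of 6281 to 7982 at 4 weeks and 5022 to 6624 at 6 weeks. The part of these cells in the class II values was not tested, and in sampled tissue more cells of a type and more RNA per cell cannot be told apart.

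Cxcl13, Gbp2b and Bank1 were among the 15 largest increases. Cxcl13, a chemokine that attracts B cells (probe set 10523359), read 285, 155 and 167 at 4 weeks and 2394, 2690 and 971 at 6 weeks. It rose 9.47-fold, a log2 change of 3.24 (SE 0.41, adjusted p = 0.035). Gbp2b, an interferon-induced GTPase, read 37.2, 84.8 and 89.6 against 483, 652.5 and 243, a log2 rise of 2.69 (SE 0.46, adjusted p = 0.045). Age and the mice sampled cannot be told apart in it, and its 6-week levels differed between replicate numbers alike in duct and TEB. In both genes the 6-week array of replicate 3 was the lowest of its age and still above every 4-week array. Bank1, a B cell scaffold protein, rose by 1.44 (SE 0.26) on the log2 scale. It read 46.4 to 60.5 at 4 weeks and 126 to 177 at 6 weeks, so its 4-week values were near the dim end of the array. Bank1 stood below an intensity of 200 at both ages.

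Of 17 genes of the interferon response none was called, 14 were positive and 5 were higher without overlap, with a median log2 change of 0.47. The highest was Usp18, a deubiquitinase of this response, which read 348, 149 and 143 at 4 weeks and 558, 770 and 191 at 6 weeks. The 2 ages overlapped in Usp18 because replicate 3 at 6 weeks lay below replicate 1 at 4 weeks. Tap1, a peptide transporter, had a log2 change of 0.58 and an adjusted p of 0.055. Cxcl9, an interferon-induced chemokine named after its values were seen, read 254 to 271 at 4 weeks and 1297, 1684 and 391 at 6 weeks (adjusted p = 0.097).

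Mucins and other secreted proteins moved in both directions. Of 12 secreted defence proteins 2 rose, 1 fell, 5 were higher without overlap and 4 lower. Muc16, a large transmembrane mucin, read 18.6, 9.02 and 21.7 at 4 weeks and 115, 117 and 111 at 6 weeks, a log2 rise of 2.90 (SE 0.49, adjusted p = 0.044). It stood below an intensity of 200 at both ages, and its further levels were 694 and 942 at 8 weeks. Muc4, another membrane mucin, read 149, 117 and 134 against 276, 245 and 252, a log2 rise of 0.96 (SE 0.16). Dmbt1, a secreted scavenger receptor, read 366, 418 and 1468 at 4 weeks and 4228, 2315 and 6653 at 6 weeks, and its log2 change of 2.73 was not called (adjusted p = 0.066).

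Lbp, which binds bacterial lipopolysaccharide (probe set 10478048), read 2339, 2316 and 2104 at 4 weeks and 423, 336 and 679 at 6 weeks. It fell by 2.29 on the log2 scale (SE 0.23, adjusted p = 0.018), with no overlap between the ages. Wfdc12, a whey acidic protein domain antimicrobial, read 378, 924 and 409 against 139, 126 and 133, and fell by 1.98 (SE 0.32). Slpi, a protease inhibitor of the same domain family, read 404, 1447 and 640 at 4 weeks and 340 to 381 at 6 weeks, and was not called (adjusted p = 0.22). In both Wfdc12 and Slpi the 4-week array of replicate 2 was the highest of the 6.

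Fgb, the beta chain of fibrinogen (probe set 10498981), gave the largest increase of all called genes. It read 487, 71.9 and 306 at 4 weeks and 2958, 3227 and 2002 at 6 weeks, which is 12.1-fold, a log2 rise of 3.60 (SE 0.63, adjusted p = 0.046). The gamma chain gene Fgg, named after its values were seen, read 3377, 1573 and 1021 at 4 weeks and 2253, 2076 and 2137 at 6 weeks. Its ages overlapped, and its log2 change was 0.29 (adjusted p = 0.69). At 8 weeks Fgb read 656 and 311 and at 10 weeks 353 and 507, all below the 6-week arrays.

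Ctse, the aspartic protease cathepsin E, read 285, 340 and 671 against 1986, 1803 and 1794, a log2 rise of 2.21 (SE 0.29, adjusted p = 0.036). Trpc6, a calcium-permeable channel, read 229, 162 and 317 against 1016, 1081 and 686, and rose 4.0-fold (SE 0.27 on the log2 scale). The remaining large increases were Igsf5 (log2 change 1.58), Zfp991 (1.37), Stxbp6 (1.27), Eps8l1 (1.27) and Kif5c (1.18). Igsf5 encodes a junctional adhesion protein, Eps8l1 a regulator of actin, and Kif5c a kinesin motor. In each of these the lowest 6-week array stood above every 4-week array.

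Nr1d1, which encodes the nuclear receptor REV-ERB alpha of the circadian clock (probe set 10390691), read 354, 581 and 419 at 4 weeks and 1414, 1265 and 1605 at 6 weeks. It rose 3.22-fold, a log2 change of 1.69 (SE 0.19, adjusted p = 0.024). Of 17 clock genes it was the sole one called, and 11 were positive with a median log2 change of 0.022. Cry1, a repressor of the clock, had a log2 change of -0.61 and did not overlap between ages, while Per2, another repressor, had -0.13. Nr1d1 was also called in WT TEBs (log2 change 2.22) and in K14-DN-Clim ducts (1.24). The hour at which each mouse was sampled is unknown here.

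The oxidative phosphorylation list ran in one direction. All 22 measured members were negative, 19 of them lower without overlap, and 3 fell, with a median log2 change of -0.41. Cox7a1, the heart and muscle form of a cytochrome oxidase subunit (probe set 10551836), read 588, 1549 and 997 at 4 weeks and 229, 288 and 176 at 6 weeks. It fell by 2.10 on the log2 scale (SE 0.34, adjusted p = 0.043). Ndufb5, a complex I subunit, read 1939, 2218 and 1993 against 1403, 1440 and 1217, and fell by 0.60 (SE 0.096, adjusted p = 0.042). Atp5c1, the gamma subunit of ATP synthase, read 4620, 4657 and 4747 against 3392, 3315 and 2819, and fell by 0.56 (SE 0.087, adjusted p = 0.038).

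A cluster of members lay just outside the threshold, among them cytochrome c (Cycs, log2 change -0.50, adjusted p = 0.051) and the ATP synthase beta subunit Atp5b (-0.42, adjusted p = 0.053). Cox6a1, a cytochrome oxidase subunit outside the list, read 3939, 3317 and 4161 against 1865, 1519 and 2411, and fell by 1.00 (SE 0.17). The members' summed intensity was 57318 to 64740 at 4 weeks and 44832 to 47256 at 6 weeks. All 22 were still negative after quantile normalization, with a median of -0.35. The list median was -0.62 in WT TEBs and -0.020 in K14-DN-Clim ducts, and no gene differed between the 2 genotypes' ducts by the test of the difference.

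Of 16 hypoxia and glycolysis genes 2 fell, 15 were negative and 8 were lower without overlap, with a median log2 change of -0.28. Bnip3, a mitochondrial protein of hypoxia, read 1789, 1940 and 2045 against 1254, 1350 and 1004, and fell by 0.69 (SE 0.12, adjusted p = 0.047). Pgk1, the glycolytic phosphoglycerate kinase, fell by 0.63 (SE 0.11, adjusted p = 0.044), with 2095 to 2647 at 4 weeks and 1463 to 1655 at 6 weeks. The values used for Pgk1 are listed identically for 2 probe sets, so copies of the gene may share probes.

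Fat markers were read beside them. All 13 adipocyte markers were negative with a median log2 change of -0.23, 7 of them lower without overlap, and 1 fell. Fabp4, the fatty acid binding protein of adipocytes, read 6196, 5962 and 6788 at 4 weeks and 4762, 4694 and 4738 at 6 weeks, and fell by 0.41 (SE 0.073, adjusted p = 0.046). After quantile normalization its change was -0.19 and it was no longer called (adjusted p = 0.19). The markers' summed intensity was 44967 to 55294 at 4 weeks and 37116 to 41152 at 6 weeks, without overlap. Adipoq, the adipocyte hormone adiponectin, had a log2 change of -0.15 that was not called.

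Cidea, a lipid droplet protein of brown fat, read 557, 774 and 682 against 285, 292 and 279, and fell by 1.22 (SE 0.14, adjusted p = 0.027). Other brown fat genes were then looked up after the values of Cidea and Cox7a1 were seen. Ucp1, the uncoupling protein, read 187.5, 1172 and 362 at 4 weeks and 96.2, 72.9 and 91.7 at 6 weeks, a log2 change of -2.32 with an adjusted p of 0.093. Cox8b, a cytochrome oxidase subunit of brown fat and muscle, read 829, 2400 and 1410 against 540, 431 and 358 (-1.69, adjusted p = 0.066). Elovl3, a fatty acid elongase of brown fat, overlapped between ages (-1.05, adjusted p = 0.33).

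Replicate 2 at 4 weeks was the highest array for Ucp1, Cox8b, Elovl3, Cidea and Cox7a1 alike. In WT TEBs all 5 changes were negative, with log2 values of -2.31, -1.275, -2.49, -1.06 and -2.13. In K14-DN-Clim ducts the change in these 5 genes was not negative except for Cox7a1, with log2 values of 0.48, 0.67, 0.37, 1.06 and -0.22. Cidea read 683, 412 and 49.3 there at 4 weeks and 701 and 357 at 6 weeks, so its value rested on replicate 3 at 4 weeks. The part of fat cells in the oxidative phosphorylation values was not tested.

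Aldh3a1, Adh1, Crabp1 and Apod were among the 15 largest decreases. Aldh3a1, an aldehyde dehydrogenase, read 265, 327 and 226 against 42.1, 81.5 and 21.2, and fell by 2.69 (SE 0.47, adjusted p = 0.046). Adh1, an alcohol dehydrogenase that also oxidises retinol, read 2166, 2147 and 1774 against 969, 898 and 931, and fell by 1.12 (SE 0.099, adjusted p = 0.016). Crabp1, a retinoic acid binding protein, read 1294, 1827 and 1262 against 760, 749 and 643, and fell by 1.01 (SE 0.16). Apod, the lipid carrier apolipoprotein D, read 3132, 3956 and 2511 against 1239, 1456 and 983, and fell by 1.38 (SE 0.19).

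Adh1 was back at 2246 on both 8-week arrays, while Crabp1 read 191 and 239 there, below its 6-week values. The other large decreases were Ppp1r3c, a glycogen targeting subunit (log2 change -1.03), Car4, a membrane carbonic anhydrase (-1.02), and Tmod4, a tropomodulin of skeletal muscle (-1.45). Of 9 other skeletal muscle markers none was called and 2 were lower without overlap, where 18.0% of all genes were. Their median log2 change was -0.032, with sums of 1836 to 1987 at 4 weeks and 1568 to 1757 at 6 weeks. H3c15, a replication-dependent histone gene, had -1.81 and Ifnz, an interferon zeta gene, -1.22. Both belong to families of near-identical copies, whose probes may be shared. Tmod4 read 135 to 197 at 4 weeks and 54.6 to 72.7 at 6 weeks, and H3c15 144 to 196 and 34.2 to 59.1. Tmod4 and H3c15 thus stood below an intensity of 200 at both ages and passed the filter through other laser capture arrays.

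Of 17 measured imprinted growth genes 3 fell, 16 were negative and 8 were lower without overlap, with a median log2 change of -0.31. Nnat, the imprinted neuronatin (probe set 10477986), read 2422, 2287 and 2070 at 4 weeks and 1149, 1196 and 1002 at 6 weeks. It fell by 1.02 on the log2 scale (SE 0.099, adjusted p = 0.016). Meg3, a maternally expressed non-coding RNA, read 1538, 2150 and 1460 against 941, 901 and 975, and fell by 0.85 (SE 0.15, adjusted p = 0.046). Ndn, the growth suppressor necdin, read 910, 892 and 970 against 633, 612 and 476, and fell by 0.70 (SE 0.13, adjusted p = 0.049).

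Mest had a log2 change of -1.07 that was not called (adjusted p = 0.14), and its lowest array was replicate 3 at 6 weeks at 144. Slc22a18 was the sole positive member (0.41). The median over the list was -0.33 in WT TEBs and -0.53 in K14-DN-Clim ducts, and Nnat was called in both. Nnat did not stay low with age in the WT ducts. It read 2741 and 3013 at 8 weeks and 4854 and 6338 at 10 weeks, above every 4-week array.

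**Figure D2:**
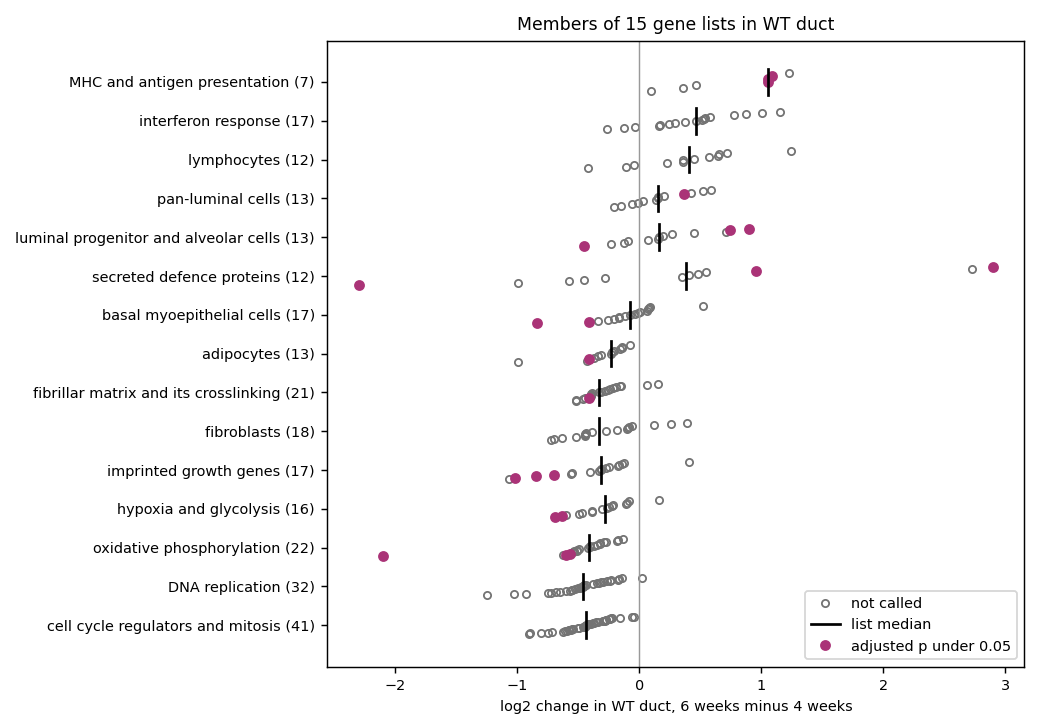
Log2 change between 4 and 6 weeks in WT duct for the members of 15 gene lists, with the number measured in parentheses (filled, adjusted p under 0.05; open, not called; vertical bar, list median). All members of the MHC list lie above 0 with a median of 1.05, and all of oxidative phosphorylation and of the cell cycle list lie below 0 with medians of -0.41 and -0.44.

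Of 21 genes of fibrillar matrix 1 fell, 19 were negative and 12 were lower without overlap, with a median log2 change of -0.33. Sparc, a collagen-binding matrix protein, read 9675, 9936 and 10280 against 7537, 7108 and 7851, and fell by 0.41 (SE 0.071, adjusted p = 0.046). Col3a1, a fibrillar collagen, had -0.51 and missed the threshold (adjusted p = 0.058). After quantile normalization the change of Sparc was -0.082 and it was no longer called. Of 18 fibroblast markers none was called and 10 were lower without overlap, and their sums did not overlap, at 42303 to 48449 against 34220 to 36860. Pdgfra, a platelet-derived growth factor receptor of fibroblasts, had a log2 change of -0.72 and an adjusted p of 0.052.

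Of 16 metalloproteinases and inhibitors none was called and 10 were lower without overlap, with a median log2 change of -0.34. In the basement membrane list of 17 genes 1 rose and 1 fell. Lama5, a laminin alpha chain, read 1212, 1384 and 1357 against 1817, 1848 and 1949 and rose by 0.51 (SE 0.082, adjusted p = 0.043). Col4a1, a type IV collagen chain, read 1689, 1791 and 1835 against 1350, 1362 and 1284 and fell by 0.41 (SE 0.073, adjusted p = 0.047). Of 16 endothelial markers none was called and 14 were negative. Nerve markers were also uncalled, with 5 of 7 negative.

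Of 13 pan-luminal genes 1 rose, 6 were higher without overlap and none was lower without overlap. Cdh1, the epithelial adhesion molecule E-cadherin, read 2347, 2388 and 2411 at 4 weeks and 3133, 3092 and 2995 at 6 weeks, a log2 rise of 0.37 (SE 0.064, adjusted p = 0.046). Krt8 and Krt18, the luminal keratins, had log2 changes of -0.15 and -0.0061 and were not called. Krt14 and Krt5, the basal keratins, had -0.17 and -0.079 and were not called either.

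Of 17 basal genes 2 fell and 7 were lower without overlap. Actg2, a smooth muscle actin of contractile cells, read 1328, 1262 and 1524 against 809, 835 and 669, and fell by 0.83 (SE 0.12, adjusted p = 0.036). Vim, the filament protein vimentin, which fibroblasts also carry, read 6523, 6234 and 6398 against 4935, 4723 and 4773, and fell by 0.41 (SE 0.064, adjusted p = 0.039). After quantile normalization Vim had -0.17 and was not called. Acta2, the actin of myoepithelium, had a log2 change of -0.26 (adjusted p = 0.21). The summed intensity of the basal list overlapped, at 43709 to 48658 and 39350 to 45872. The median of the list was -0.079 and moved to 0.0096 after quantile normalization.

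Of 13 luminal progenitor and alveolar genes 2 rose and 1 fell. Kit, a receptor of luminal progenitors and of mast cells, read 1580, 1394 and 1699 at 4 weeks and 2566, 2549 and 2701 at 6 weeks, a log2 rise of 0.75 (SE 0.090, adjusted p = 0.035). The other 5 mast cell markers all had negative changes and none was called. Muc1, a luminal mucin, read 539, 528 and 383 against 865, 796 and 1035, a log2 rise of 0.90 (SE 0.16, adjusted p = 0.050). Csn3, the milk protein kappa casein, read 6952, 5983 and 6299 against 4792, 4542 and 4700 and fell by 0.45 (SE 0.078, adjusted p = 0.046), which was -0.23 and not called after quantile normalization. Of 12 hormone-sensing genes none was called. Esr1, the estrogen receptor, had 0.078 and Pgr, the progesterone receptor, 0.40.

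Id2, an inhibitor of basic helix-loop-helix factors and a target of BMP signalling (probe set 10399691), read 3494, 3718 and 3627 at 4 weeks and 2051, 2134 and 1970 at 6 weeks. It fell by 0.82 (SE 0.069, adjusted p = 0.016), and the 3 arrays of each age lay close together. Its relatives Id1 and Id3 had log2 changes of -0.92 and -0.66 with adjusted p of 0.12 each, and both were lower without overlap. Id2 was the sole gene called of 23 in the TGF-beta and BMP list, whose median was -0.054. Among 31 Wnt, 19 Notch, 15 FGF, 12 ErbB and 16 IGF pathway genes none was called, and their medians lay between -0.21 and 0.084.

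No gene was called among 9 Clims and partners, 30 genes of ribosome biogenesis, 22 immediate-early and heat shock genes, 20 of the unfolded protein response, 17 of cholesterol synthesis, 17 of fatty acid synthesis or 13 of epidermal differentiation. Alas2, the one measured red cell gene, had a log2 change of -1.15 that was not called. The Clim gene Ldb1 had -0.027, Ldb2 had -0.27 and their partner Lmo4 had -0.36. Of 16 genes that the study itself names none was called, and 7 did not overlap between the ages. Of these, 4 were higher and 3 lower, where 10.9% and 18.0% of all genes were.

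The cell cycle list had a negative change in all 41 members in WT duct, yet none was called. Lower without overlap were 5 members, where 18.0% of all genes were, and the median log2 change was -0.44. That median rested on the 6-week array of replicate 3, whose summed intensity was 12897 against 22991 and 25324 on the other 6-week arrays and 22200 to 27854 at 4 weeks. Without it the median was -0.034 and 24 of 41 were negative. Mki67, the proliferation marker Ki-67, read 1448, 1130 and 1746 at 4 weeks and 1421, 1609 and 711 at 6 weeks. Of 32 DNA replication genes none was called, but 31 were negative and 21 were lower without overlap, with a median of -0.46 that moved to -0.24 without that array, with 29 negative. Mcm7, a helicase subunit, read 1127, 1110 and 1164 against 879, 923 and 689 (adjusted p = 0.100).

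The same 2 weeks in WT TEBs gave much larger negative changes in these lists, with medians of -2.02 for the cell cycle and -1.64 for DNA replication. Whether the change between 4 and 6 weeks differed between duct and TEB was tested over 12 WT arrays, with duct and TEB of the same replicate number as a random block. That equal numbers come from 1 mouse is assumed, since the labels do not say so. Their deviations correlated at 0.50, 0.24 and 0.37 at 4 weeks but at -0.045, 0.24 and 0.097 at 6 weeks. It differed for 78 of 22693 probe sets and, as genes, for 61, of which 53 had the higher value in duct and 8 the lower. All 41 cell cycle genes and all 32 replication genes had a positive difference, with medians of 1.66 and 1.20, and 2 and 5 of them passed the test. Dna2, a nuclease of replication, read 332 to 407 and 256 to 361 in ducts at 4 and 6 weeks, against 696 to 801 and 146 to 277 in TEBs, a difference of 1.83 (SE 0.29, adjusted p = 0.040).

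The count depended on the arrays. Without the WT TEB array of replicate 1 at 6 weeks 1000 probe sets differed, with 466 genes higher and 243 lower in duct, and the median difference over all genes went from 0.13 to 0.016. All 61 genes were called there too, and the medians of the cell cycle and replication lists were 1.59 and 1.03. Leaving out any 1 of the 3 duct arrays at 4 weeks left 1 probe set, and leaving out each of the other arrays gave 1 to 523. Quantile normalization gave 776, and without the block 1 was called, so the result rests on the assumed pairing too.

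**Figure D3:**
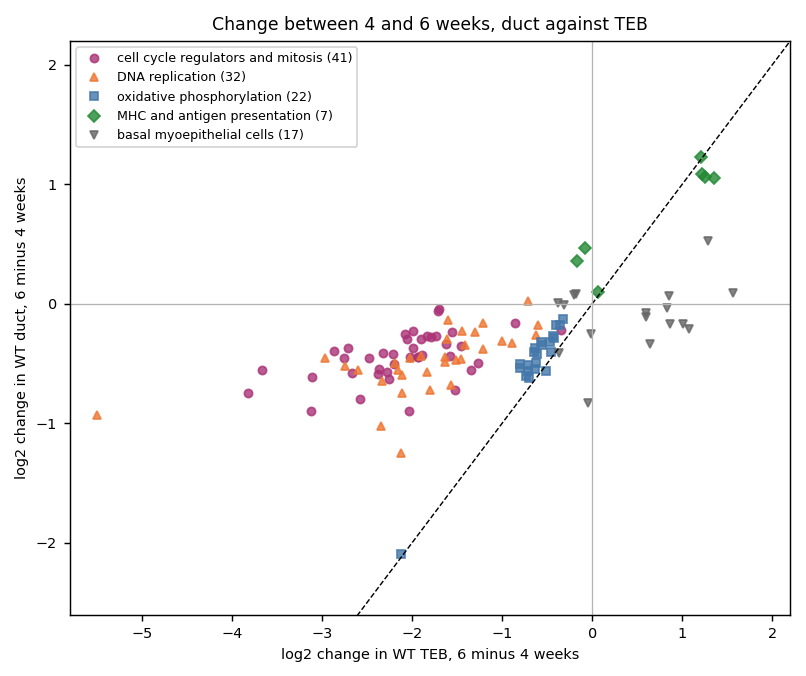
Log2 change between 4 and 6 weeks in WT duct (vertical axis) against WT TEB (horizontal axis) for the members of 5 gene lists, with equal change on the dashed line. The cell cycle (41) and DNA replication (32) members all lie left of 0 and above the dashed line, most of them far from it and a few, such as Cdk2 and Gins2, close, and the oxidative phosphorylation (22) and MHC (7) members lie near it.

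The 8 genes with the lower change in duct than in TEB included Krt17 and Lims2. Krt17, a basal keratin, read 1267 to 1558 and 1213 to 1311 in ducts at 4 and 6 weeks, and 526 to 811 and 1031 to 1178 in TEBs, a difference of -1.03 (SE 0.19, adjusted p = 0.050). Lims2, an adaptor of focal adhesions, read 611, 651 and 645 in 4-week ducts and 425, 364 and 448 in 6-week ducts, a fall of 0.63 (SE 0.11, adjusted p = 0.046). In TEBs its log2 change was 0.11, and the difference was -0.74 (SE 0.13, adjusted p = 0.048). Lims2 was the one named gene that was both called in duct and different from TEB. Its call in duct was lost after quantile normalization, with arrays at a common mean and variance, and over all 10 WT duct arrays.

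Most of the 134 called genes had the same sign in the other tissues. Of the 53 that rose in WT duct, 49 were positive in WT TEBs, where 32.2% of all genes were and the median was -0.15, and 52 in K14-DN-Clim ducts, where 53.1% of all genes were. Of the 81 that fell, 78 were negative in WT TEBs (67.8% of all genes) and 67 in K14-DN-Clim ducts (46.9%). These comparisons use separate arrays, but duct and TEB may come from the same mice. The paper reports littermates at each time point, so the K14-DN-Clim ducts do not separate age from litter either. Cxcl13 had log2 changes of 4.01 in K14-DN-Clim ducts and -0.64 in WT TEBs, and its difference between WT duct and TEB missed the threshold (3.89, adjusted p = 0.061). The WT TEBs read 832, 927 and 992 at 4 weeks and 885.5, 1413 and 161 at 6 weeks. The negative TEB value thus rested on replicate 3 at 6 weeks. Between WT and K14-DN-Clim ducts no probe set differed in its change by limma, with 1599 at an unadjusted p under 0.05.

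The WT ducts at 8 and 10 weeks, with 2 arrays each, showed whether a level reached at 6 weeks lasted. At each of these ages the array of replicate 2 carries the word TEB in 1 label and duct in its title and tissue. H2-Eb1 read 1529 and 1772 at 8 weeks and 1218 and 1226 at 10 weeks, above every 6-week array. Nr1d1 read 3204 and 3443 at 8 weeks and 2075 and 1756 at 10 weeks, also above. Cxcl13 was low again, at 61.3 and 49.2 at 8 weeks and 93.4 at 10 weeks on the array with agreeing labels, while the other 10-week array read 1637.

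Actg2 stayed near its 6-week level, with 679 to 812 over the 4 later arrays. Lbp read 1366 and 1420 at 8 weeks and 781 and 743 at 10 weeks, between the 2 younger ages. Id2 read 2410 to 2586, above the 6-week arrays and below the 4-week arrays. Fabp4 read 8219 to 8667, above both ages, so its 6-week level was the lowest of the 4 ages. These later levels were not tested.

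**Figure D4:**
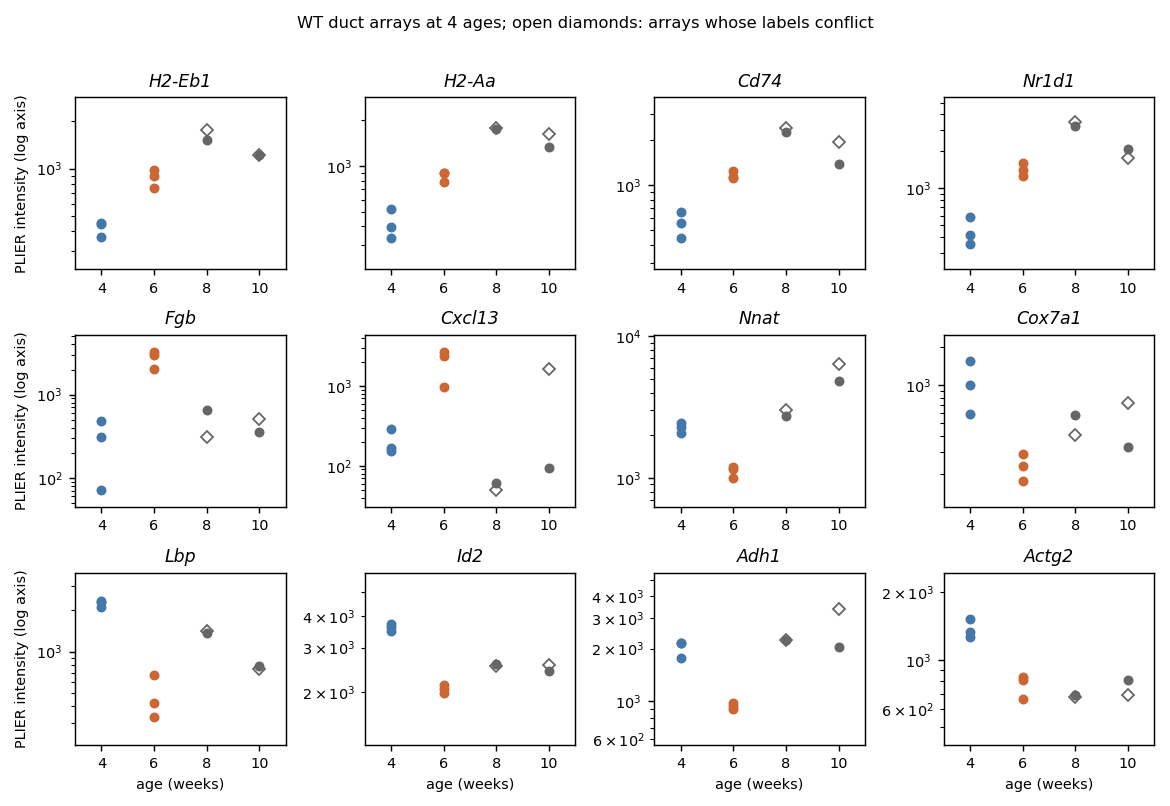
PLIER intensity (log axis, scaled per panel) of 12 named genes on every WT duct array at 4, 6, 8 and 10 weeks, 3 arrays at each of the first 2 ages and 2 at each of the others (open diamonds, the 2 arrays whose labels conflict). The 2 younger ages do not overlap in any panel, H2-Eb1 and Nr1d1 lie higher at 8 and 10 weeks than at 6, and Fgb and Nnat turn back from their 6-week level.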

How the data were processed

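RNA from laser-captured WT duct, early and mid puberty, was hybridised by the authors to Affymetrix Mouse Gene 1.0 ST arrays. The deposited intensity values were made by the authors with PLIER (version not given in the sources used here). They were floored at 1 and put on the log2 scale, and 22693 probe sets with 200 or more on at least 1 of 42 laser capture arrays were kept (22446 distinct rows of values). limma 3.58.1 in R 4.3.3 (lmFit, eBayes with trend) was fitted to the 6 arrays, with Benjamini-Hochberg adjustment over all probe sets at 0.05. A gene was its single-symbol probe set with the highest mean (13362 genes). Differences of change were fitted over 12 WT arrays and over 11 duct arrays. Scripts were tested on simulated data.

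Members and gene lists (38 and the genes the study names) were chosen with earlier results of these data known. Named are the 15 largest called increases and decreases, up to 6 called members per list (otherwise the 2 with the smallest p), the genes the study names, and up to 5 genes per direction from each test of a difference. Probes were named from the platform annotation (14694 kept probe sets with 1 symbol, 1012 with several, 6987 with none). Sequences are from RefSeq, GRCm38.p6. The number of arrays limits the precision. Alternatives were scaling, filter, floor, pseudocount of 16, other array sets, no trend, Cyber-T, the replicate number as a block and leaving out arrays.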

Additional observations from a re-analysis of the deposited data

Results flagged for a closer look

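The change between 4 and 6 weeks differed between WT duct and WT TEB for 78 probe sets, by a test of the difference itself. Among the genes named for it, the difference of log2 changes, duct minus TEB, was 2.70 for Sprr1a, a cornified envelope protein, 1.88 for Kbtbd6, a ubiquitin ligase adaptor, 1.83 for Dna2, a replication nuclease, 1.80 for Trpm3, a cation channel, and 1.70 for Timp1, a metalloproteinase inhibitor. In Sprr1a the TEB arrays read 1591 to 2725 at 4 weeks and 261 to 534 at 6 weeks, and the duct arrays 522 to 718 and 514 to 943. The difference was negative for Lims2 (-0.74), a focal adhesion adaptor, Pla2g7 (-0.84), a lipid hydrolase, Htra3 (-0.96), a secreted protease, Tppp3 (-1.03), a tubulin-binding protein, and Krt17 (-1.03), a basal keratin. All 10 were also called without the 6-week WT TEB array of replicate 1. Among the 61 genes that differed, Crispld2, outside these 10, had the lowest adjusted p. Its difference was 1.44 (SE 0.10, adjusted p = 5.3e-04), with log2 changes of 0.35 in duct and -1.09 in TEB. Without any 1 of the duct arrays at 4 weeks, without replicate 2 of the 6-week ducts, without replicate 3 of the 4-week TEBs or without the replicate block, 1 probe set was called, so at most 1 of the 10 kept its call in each.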

How the results depend on the processing

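All 52 called genes named above kept their direction under every alternative in which they were tested, and no result reversed. For most alternatives this was fixed in advance. Other tests and filters keep the difference of means, and without overlap between the ages no left-out array can turn a sign. After quantile normalization 42 of the 52 were still called. Those that lost the call were Ache, Bank1, Csn3, Fabp4, Gbp2b, H3c15, Lims2, Sparc, Tmod4 and Vim. Counts are given in the order probe sets changed, genes higher, genes lower, list members called and named called genes still called, with 333, 53, 81, 26 and 52 as reported. They were 33, 5, 6, 4 and 8 with no filter on low values, 23, 6, 1, 0 and 3 without the variance trend, and 2033, 345, 513, 122 and 50 by Cyber-T. The study used Cyber-T between genotypes and not between ages. It made too many false calls on simulated data. Those data took each probe set's spread from 3 arrays per age, so they cannot settle its rate of false calls on the real arrays. The first 4 counts were 844, 146, 242 and 48 over all 10 WT duct arrays and 667, 205, 162 and 48 over 20 WT arrays with the replicate number within an age, taken as the mouse, as random block. Genes higher numbered 98 after quantile normalization and 86 with arrays at a common mean and variance, where 58.9% of called genes were higher, against 39.6% as reported. A looser call, p under 0.01 without adjustment and a 1.5-fold change, which the study did not apply to these 2 ages, gave 701 probe sets, 116 genes higher and 171 lower. With the replicate block, the replicate number as pairing, 13, 0, 2, 1 and 2 were called by limma, with 2342 genes at an unadjusted p under 0.05. Equal numbers did not pair the samples of the 2 ages (correlations of deviations 0.11, -0.036 and 0.017). Leaving out 1 array gave 0 to 236 probe sets, 0 to 43 genes higher, 0 to 53 lower, 0 to 15 list members and 0 to 22 named genes, the lowest values without replicate 1 at 6 weeks. The difference of duct from TEB gave 1 probe set with no replicate block, 776 after quantile normalization, and 1 to 1000 when 1 array was left out. The difference of WT from K14-DN-Clim duct gave 0 with quantile normalization and with the replicate block, and 0 to 3 when 1 array was left out. The causes of these shifts were not tested. Genes near background, such as Muc16 and Bank1 at 4 weeks, have the least certain folds.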

Other observations

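Ache, which encodes acetylcholinesterase, and Ufsp1, a protease of the ufmylation pathway, both rose in WT duct and are neighbours on chromosome 5, 202 bases apart in RefSeq GRCm38.p6 with no gene between them. Ache read 27.3, 114 and 114 at 4 weeks and 560, 649 and 555 at 6 weeks (log2 change 3.05, SE 0.52, adjusted p = 0.046). Ufsp1 read 252, 286 and 295 against 711, 723 and 650 (log2 change 1.33, SE 0.11, adjusted p = 0.016).

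At some ages the 2 genes differed between replicate numbers alike in duct and TEB. That equal numbers are 1 mouse is assumed here, not given by the labels. At 10 weeks the WT duct arrays read 699 and 148 for Ache and 898 and 223 for Ufsp1, and the WT TEB arrays of the same numbers 593 and 103, and 733 and 230. The duct array with 148 and 223 carries the word TEB in 1 label, so its likeness to the TEB array cannot settle whether the tissues agree. In K14-DN-Clim mice at 8 weeks replicate 3 was the highest for both genes in both tissues (Ache 960 in duct and 881 in TEB). At 10 weeks in these mice the order differed between tissues, with 288, 293 and 451 in duct and 268, 197 and 121 in TEB for Ache. At 4 and 6 weeks the K14-DN-Clim ducts stayed between 32.8 and 148 for Ache. Gbp2b showed a like pattern at 6 weeks, with 483, 652.5 and 243 in WT ducts and 620, 718 and 256 in WT TEBs. The mice had a mixed strain background, and which alleles each one carried at these genes is not known here. For Ache, Ufsp1 and Gbp2b a rise with age and a difference between the mice sampled at each age cannot be told apart. These values were looked up after the calls were seen and were not tested.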
